A study of Mus musculus with 11 samples.

Results

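The transcripts described here were detected in mouse embryonic stem cells and had dropped to nearly the same level in day 6 embryoid bodies whether or not the cells carried connexin43 and connexin45. They were chosen on the measured values: after quantile normalization over the 11 arrays, each probe had to have a detection p-value under 0.05 on all 4 stem cell arrays, a mean that was at least 1 log2 unit (2-fold) lower in embryoid bodies than in stem cells in both lines, and a difference between deleted and control embryoid bodies of less than 0.3 log2 units (1.23-fold). This gave 191 of the 45281 probes on the array. A probe counts once, and some of the 191 may report on the same gene. No source used here pairs the probe identifiers with genes or with probe sequences, so members are given by identifier, and gene names, gene groups and sequences were not analysed here.

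Stem cells and embryoid bodies were compared in 2 lines of male C57BL/6 mouse embryonic stem cells. The control line (Cx43/45 flox) has both connexin genes flanked by recombination sites. The deleted line (Cx43/45 del) lacks exon 3 of both genes and carries lacZ driven by the Cx43 promoter and eGFP driven by the Cx45 promoter. Stem cells (2 control and 2 deleted arrays, each from 1 well) had been kept on mouse embryonic fibroblast feeder cells with 1000 U/ml leukemia inhibitory factor, which holds stem cells in the undifferentiated state. Embryoid bodies (3 control and 4 deleted arrays, about 300 pooled bodies each) had grown from hanging drops of 2000 cells and were harvested on day 6, in a medium listed without that factor. Stage, feeder layer and leukemia inhibitory factor therefore change together and cannot be told apart. Each genotype is 1 described line, and no label says that the arrays of a group came from separate cultures. The p-values below thus rest on the spread among arrays, which may be technical. The deletion itself could not be checked, since the connexin probes were not identified here.

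Embryonic stem cells keep a self-renewing state through a network of transcription factors that leukemia inhibitory factor helps to maintain. When the factor is withdrawn and the cells aggregate, this network is shut down and its transcripts decline while germ layer and primitive endoderm genes come on. Connexins form gap junctions, the channels through which neighbouring cells exchange small molecules. Transcripts that end low in both lines are those whose decline reached a like level with and without the 2 connexins. In RNA from whole cultures, fewer cells that express a transcript and less of it per cell cannot be told apart.

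Values are normalized intensities in arbitrary units, the brightness of labelled cRNA on beads that carry 1 probe each. They still contain the array background, which was 112.8 units after normalization (the median of probes detected on 0 of 11 arrays). Between 39.7% and 43.0% of probes were detected per array. The number of arrays limits the precision.

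Members were of middle to high brightness in stem cells. All 191 had a detection p-value of 0 on the 4 stem cell arrays, so the detection limit of the rule removed no probe that met the other limits. Their median was 610 and 643 units on the 2 control stem cell arrays and 643 and 724 units on the 2 deleted ones. In control bodies it was 204, 185 and 182 units, and in deleted bodies 185, 215, 188 and 187 units. The stem cell arrays thus lay far above the body arrays in both lines, and the body arrays of the lines overlapped. The median over all 23268 probes in the test was 187 units on every array. Of the members, 51 lay above 1000 units in both groups of stem cells and 55 below 500 units in both.

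**Figure D1:**
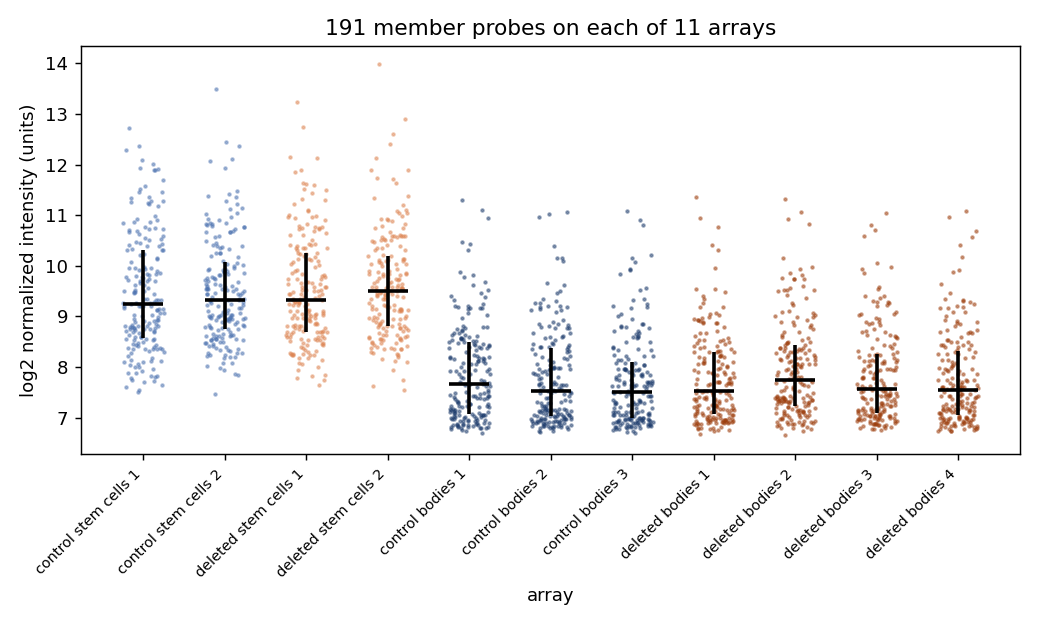
Log2 normalized intensity of the 191 member probes on each of the 11 arrays, 1 point per probe, with the median (horizontal bar) and the quartiles (vertical bar). Medians were 610 to 724 units on the stem cell arrays and 182 to 215 units on the embryoid body arrays, with the highest body median on deleted replicate 2.

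The decline from stem cells to bodies was the property by which members were chosen, so its values are a description. The median change was -1.59 log2 units in the control line (3.01-fold lower) and -1.54 in the deleted line (2.90-fold lower), against -0.01 and 0.02 over all probes tested. The largest declines were 10.6-fold in the control line and 14.9-fold in the deleted line. Both lines dropped at least 4-fold for 30 members and at least 8-fold for 3. With limma, 190 members passed as lower in bodies in the control line (adjusted p under 0.05), where 19.4% of all tested probes did, and 191 in the deleted line, where 11.8% did. The stem cell and body arrays did not overlap in either line for any member, which held for 12.9% of all tested probes. Nothing is read from these counts, since the rule used both contrasts. The exception in the control line was ILMN_2776603, picked out after its values were seen. Its control stem cell arrays stood at 372 and 177 units and its control body arrays at 119, 114 and 114 units, a change of -1.15 ± 0.43 log2 units (SE, limma adjusted p = 0.057). It passed with neqc (adjusted p = 0.0039), with the stricter detection filter (0.042), with the 2 groups fitted alone (0.030), and without control stem cell replicate 2 (0.031) or deleted stem cell replicate 1 or 2 (0.0076 and 0.0069). Its deleted stem cell arrays were as uneven, at 694 and 215 units, and without deleted stem cell replicate 1 its change in the deleted line was -0.79 (adjusted p = 0.12).

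**Figure D2:**
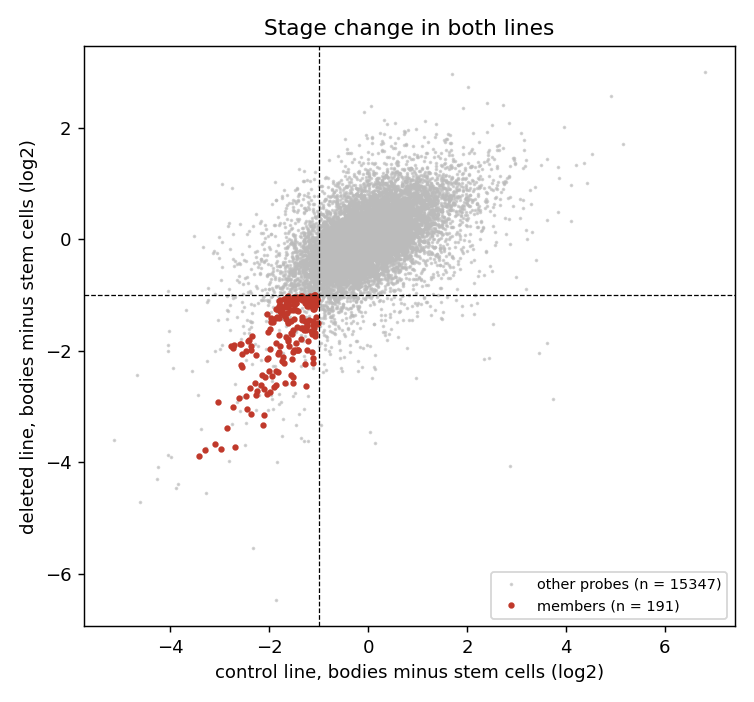
Change from stem cells to embryoid bodies in the control line (x axis, log2) and in the deleted line (y axis, log2) for the 15538 probes detected on all 4 stem cell arrays; the 191 members are red, the others grey, and dashed lines mark a change of -1. Members fill the lower left corner by their selection, and grey points in that corner are the 174 probes that dropped as far in both lines but differed by at least 0.3 between the bodies.

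The 10 largest mean declines ranged from 5.13- to 10.6-fold in the control line and from 7.60- to 14.9-fold in the deleted line. These are folds of intensity with background, which understate the decline of a transcript that was not detected in bodies. ILMN_2889832 had the largest. It read 1007 and 1625 units in control stem cells and 1730 and 1928 units in deleted ones. In bodies it read 125, 121 and 116 units in the control line and 118, 128, 125 and 121 units in the deleted line. It was detected on 0 of 7 body arrays, and its body arrays overlapped between the lines. Its signal had thus reached background in both, which makes 10.6-fold and 14.9-fold a measure of its brightness in stem cells.

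ILMN_2687872 read 1278 and 1918 units in control stem cells, 1607 and 2192 units in deleted stem cells, 180, 142 and 159 units in control bodies and 121, 178, 146 and 109 units in deleted bodies. It was detected on 3 of 3 control but 2 of 4 deleted body arrays. ILMN_2947526 read 1632 and 2632 units, 2386 and 3395 units, 295, 208 and 231 units, and 217, 293, 203 and 193 units in the same order of groups. This probe was still detected on all 7 body arrays. In both, the deleted body arrays spanned the control ones or lay partly below them, and every stem cell array was higher than every body array.

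ILMN_2712120 was the brightest of the 10 and the farthest above background at the end. It read 3895 and 4319 units in control stem cells and 4518 and 5435 units in deleted ones. In bodies it read 665, 557 and 637 units in the control line and 466, 752, 637 and 641 units in the deleted line. Its decline of 6.64-fold and 8.06-fold ended at a difference of -0.01 log2 units between the bodies, with a 95% interval of -0.34 to 0.33. The stem cell arrays of the lines did not overlap, while the body arrays of the lines did.

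ILMN_1255416 read 1372 and 1618 units in control stem cells, 3135 and 2164 units in deleted ones, 199, 199 and 172 units in control bodies and 205, 238, 191 and 147 units in deleted bodies. ILMN_2757617 read 617 and 964 units, 2540 and 1353 units, 128, 113 and 116 units, and 120, 167, 143 and 133 units in the same order. ILMN_2731901 read 573 and 917 units, 1465 and 1089 units, 137, 133 and 129 units, and 145, 184, 150 and 138 units. In all 3 the deleted stem cell arrays lay above both control stem cell arrays. The bodies of the lines overlapped for the first 2, while for ILMN_2731901 every deleted body array was above every control one, the closest by about 1 unit. The measured decline was larger in the deleted line at 13.6-fold against 7.87-fold for ILMN_1255416 and 8.23-fold against 5.45-fold for ILMN_2731901. Neither difference in decline between the lines passed with limma (adjusted p = 0.11 and 0.20). After subtraction of background, 5.58% of the control and 3.24% of the deleted stem cell signal was left in bodies for ILMN_1255416. For ILMN_2731901 the shares were 3.20% and 3.57%, the other order. ILMN_2757617 was detected on 0 of 3 control and 3 of 4 deleted body arrays, so its folds are set by background and are not compared.

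ILMN_3132949 and ILMN_2503553 repeated this order of the stem cell arrays less clearly. ILMN_3132949 read 835 and 1215 units in control stem cells, 1362 and 1560 units in deleted ones, 147, 134 and 138 units in control bodies and 136, 151, 130 and 139 units in deleted bodies. ILMN_2503553 read 377 and 870 units, 823 and 1182 units, 111, 119 and 105 units, and 111, 112, 117 and 109 units, detected on 0 of 7 body arrays. The control stem cell arrays of ILMN_2503553 were more than 2-fold apart, and replicate 2 lay within the range of the deleted ones.

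ILMN_1239178 also met the rule although its bodies did not overlap. It read 1122 and 937 units in control stem cells and 1306 and 1025 units in deleted ones. In bodies it read 121, 125 and 127 units in the control line, detected on 0 of 3 arrays, and 142, 161, 146 and 161 units in the deleted line, detected on 4 of 4. Every deleted body array was above every control one. The difference was 0.29 ± 0.10 log2 units (SE, limma adjusted p = 0.069). After limma's neqc background correction it became 0.96 (adjusted p = 0.0031), and with the bodies fitted alone its adjusted p was 0.031.

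**Figure D3:**
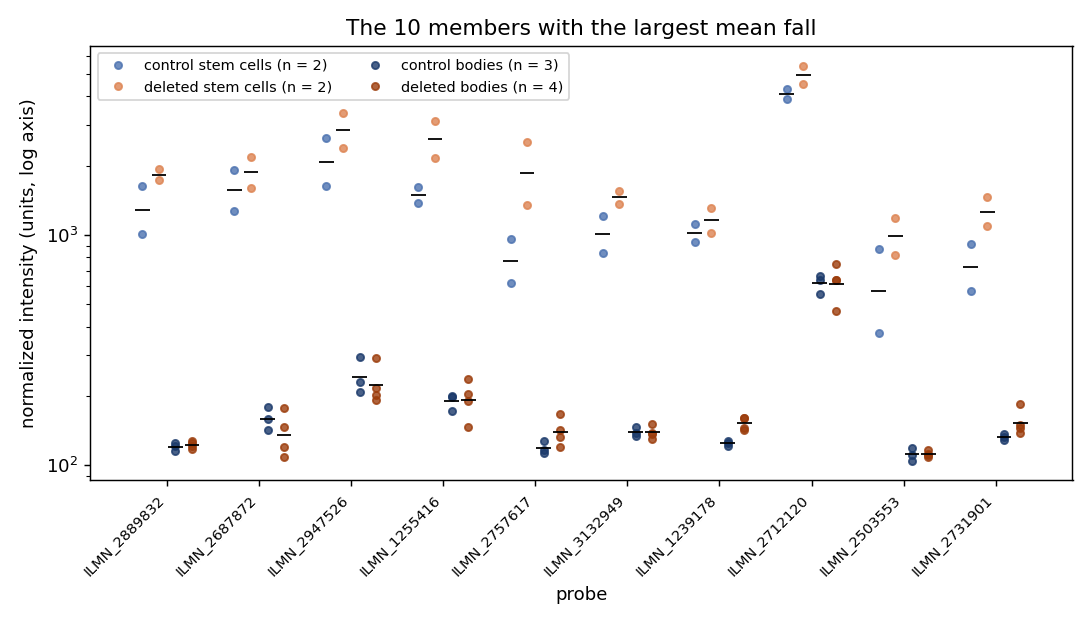
Normalized intensity (log axis, units) of the 10 members with the largest mean decline; each point is an array and each bar the group's mean on the log2 scale, for 2 control and 2 deleted stem cell arrays and 3 control and 4 deleted body arrays. Stem cell points lie above all body points of the same probe, and ILMN_1239178 and ILMN_2731901 have control and deleted body points that do not overlap.

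Members that stayed bright in bodies measure the shared end level farthest above background. ILMN_2419138 read 3335 and 5311 units in control stem cells and 4460 and 6215 units in deleted ones. In bodies it read 1981, 1985 and 1928 units in the control line and 2646, 2143, 2106 and 2156 units in the deleted line. All deleted body arrays were above all control ones, by 0.20 log2 units on average (95% interval -0.17 to 0.57). Replicate 1 stood apart from the other deleted body arrays.

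ILMN_2712873 read 5304 and 4414 units in control stem cells, 3782 and 4464 units in deleted ones, 2192, 2071 and 2167 units in control bodies and 1745, 2565, 1802 and 1650 units in deleted bodies. ILMN_2729718 read 3833 and 3903 units, 2531 and 3780 units, 1423, 1145 and 1786 units, and 1356, 1811, 1543 and 1361 units in the same order. Both were just over 2-fold lower in the deleted line, and deleted body replicate 2 was the highest of the deleted bodies in each. Their differences between bodies were -0.17 (95% interval -0.49 to 0.16) and 0.08 (-0.32 to 0.48) log2 units.

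ILMN_2909150 was the brightest member in stem cells, at 6730 and 11565 units in the control line and 9710 and 16150 units in the deleted line. Its bodies read 2521, 2143 and 1186 units and 1981, 1956, 1665 and 1993 units. ILMN_1238215 read 2636 and 5604 units in control stem cells, 6826 and 7674 units in deleted ones, 1385, 1340 and 913 units in control bodies and 1270, 1140, 1004 and 1518 units in deleted bodies. In both probes the control body arrays enclosed or overlapped the deleted ones, and the control stem cell arrays were far apart.

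Signal above background gives the decline on a scale that brightness does not compress. After subtraction of 112.8 units, a median of 12.8% of the stem cell signal was left in control bodies and 15.7% in deleted bodies. The share left was larger in the deleted line for 113 of 191 members. It was under 10% in both lines for 54 members and at least 25% in both for 34. On the neqc scale the median decline was -2.58 log2 units in the control line and -2.42 in the deleted line, about 1 unit beyond that of the values with background.

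How far the end level is a measurement differed between members. Of the 191, 126 were detected on all 7 body arrays, 54 on 1 to 6 and 11 on 0. The rule set no detection limit on bodies, and a probe at background in both groups meets the limit of 0.3 through its background. Among the 126, median levels were 280 units in control bodies and 275 in deleted bodies, and 93 also differed by less than 0.3 after neqc. Among the other 65, 26 did, and 22 differed by at least 0.5. In all, 119 of 191 members kept a difference under 0.3 after neqc, and the neqc differences ran from -0.90 to 0.96.

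Detection itself divided the lines for 6 members, which were singled out after their values were seen. ILMN_1239178, ILMN_2760800, ILMN_2659426 and ILMN_2742912 were detected on 4 of 4 deleted and 0 of 3 control body arrays, as were 1.41% of all tested probes (2.09% of members). ILMN_2760800 read 116, 111 and 119 units in control bodies and 136, 150, 136 and 142 units in deleted ones. ILMN_2659426 read 124, 116 and 116 units against 133, 137, 136 and 137 units, and ILMN_2742912 read 113, 114 and 118 units against 129, 132, 128 and 128 units. In all 3 every deleted body array was above every control one, at levels just above background.

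The opposite held for ILMN_2980661 and ILMN_2756486, detected on 3 of 3 control and 0 of 4 deleted body arrays, as were 1.31% of all tested probes (1.05% of members). ILMN_2980661 read 142, 128 and 138 units in control bodies and 120, 116, 117 and 118 units in deleted ones. ILMN_2756486 read 136, 143 and 146 units against 118, 123, 114 and 115 units. None of the 6 passed between the bodies with limma as fitted to all arrays. With the bodies fitted alone, ILMN_2760800 (0.29, limma adjusted p = 0.024), ILMN_2756486 (-0.27, adjusted p = 0.025) and ILMN_1239178 passed. After neqc the difference passed for ILMN_1239178, ILMN_2760800 (0.92, adjusted p = 0.017), ILMN_2659426 (0.64, adjusted p = 0.018), ILMN_2980661 (-0.68, adjusted p = 0.021) and ILMN_2756486 (-0.90, adjusted p = 0.0061).

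The difference between deleted and control bodies was held under 0.3 by the rule, so a small difference is no result, and its interval shows how tightly it was measured. The 95% interval stayed within 1 log2 unit of 0 for 190 of 191 members, as for 87.1% of all tested probes. It stayed within 0.5 units for 92 members, or 48.2%, as for 56.6% of all tested probes. Among the 126 members detected on all body arrays 49 had an interval within 0.5 units. For the other 99 members a difference of 0.5 or more, 1.41-fold, thus lay inside the interval. The body arrays of the lines did not overlap for 31 members (16.2%), against 32.8% of all tested probes, a count the rule holds down.

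A single member, ILMN_2916202, passed between the bodies with limma, where 22.5% of all tested probes did. It read 135, 139 and 127 units in control bodies and 160, 161, 164 and 151 units in deleted ones, with 419 and 395 units in control and 320 and 354 units in deleted stem cells. The difference was 0.25 ± 0.07 log2 units (SE, limma adjusted p = 0.027). It did not pass with trended robust moderation (adjusted p = 0.11), with the replicate number as a block (0.068), or without control body replicate 1 or 3 or deleted body replicate 1, 2 or 3 (0.054 to 0.099). After neqc, 13 members (6.81%) passed, against 23.4% of all tested probes.

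**Figure D4:**
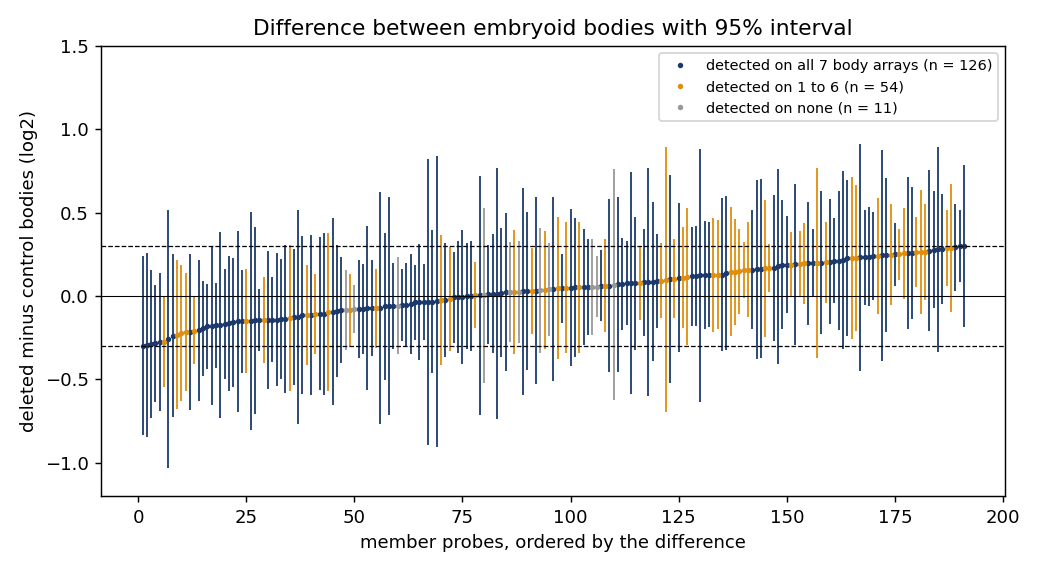
Deleted minus control embryoid bodies (log2) with limma's 95% interval for the 191 members, ordered by the difference and coloured by the number of body arrays on which they were detected (all 7, 1 to 6, or 0). Dashed lines mark the limit of 0.3 used to choose members; the intervals of most members reach past it, and 182 of 191 hold 0.

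The tightest measurements among members detected on all body arrays came from 4 probes. ILMN_2912471 read 811 and 823 units in control stem cells, 806 and 766 units in deleted ones, 294, 241 and 244 units in control bodies and 236, 240, 241 and 220 units in deleted bodies. Its difference was -0.15 (95% interval -0.33 to 0.04). ILMN_2602581 read 437 and 396 units, 438 and 376 units, 215, 189 and 185 units, and 210, 219, 188 and 193 units in the same order, with a difference of 0.05 (-0.16 to 0.25). The bodies overlapped for ILMN_2602581, while for ILMN_2912471 every deleted body array lay below every control one, the closest by less than 1 unit.

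ILMN_2637233 read 508 and 571 units in control stem cells, 670 and 596 units in deleted ones, 291, 253 and 249 units in control bodies and 279, 331, 295 and 307 units in deleted bodies. Its difference was 0.20 (95% interval -0.01 to 0.40). ILMN_1225332 read 470 and 521 units, 434 and 527 units, 156, 144 and 164 units, and 185, 183, 184 and 183 units. Every deleted body array of this probe was above every control one, by 0.25 (0.06 to 0.44, limma adjusted p = 0.058). It passed under median scaling (0.28, adjusted p = 0.042), with neqc (0.62, adjusted p = 0.024) and with the bodies fitted alone (0.25, adjusted p = 0.040).

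At the other end stood members whose body replicates disagreed. ILMN_2639239 read 737, 543 and 359 units in control bodies and 327, 978, 659 and 328 units in deleted bodies. Its mean difference of -0.03 had an interval of -0.90 to 0.84. ILMN_2698046 read 408, 629 and 225 units and 586, 295, 330 and 409 units, with a difference of 0.02 and an interval of -0.74 to 0.77. For both, equal means covered arrays of 1 group that were close to 3-fold apart.

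Like end levels did not fix the size of the decline. The next counts carry no error, and no share over all tested probes was taken for them. Most of these differences did not pass the interaction below. The decline in 1 line differed from that in the other by at least 0.3 log2 units for 121 of 191 members, by at least 0.5 for 58 and by at least 1 for 7. The deleted line dropped farther for 96 members and the control line for 95. For 112 of the 121 the stem cell difference between the lines was larger than the body difference, and for the others the body difference was the larger. The rule held the body difference under 0.3, so the choice of members largely fixes this count and nothing is read from it. The interaction, the body difference minus the stem cell difference, passed for 10 members with limma, or 5.24% against 11.6% of all tested probes. The deleted line had the larger decline for 8 of them (5.96% of all tested probes) and the control line for 2 (5.61%). The rule used the body part of this contrast. The count moved both down and up when a stem cell array was left out. Fits without a stem cell array leave 1 array in its group, so no count is given for them. The count was 6 (3.14%) without deleted body replicate 3 or 4, against 8.03% and 8.76% of all tested probes. It was 3 (1.57%, against 7.97%) with the replicate number as a block.

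The rule set no limit on deleted against control stem cells, but both stem cell means entered its limits on the decline, so the values of this contrast are a description and support nothing. No member passed it with limma, as 0% of all tested probes did, and trended robust moderation also gave 0. At an unadjusted p under 0.05 there were 60 members (31.4%), against 8.99% of all tested probes. Of these 44 were higher in deleted stem cells (4.84% of all tested probes) and 16 lower (4.15%). The stem cell arrays of the lines did not overlap for 82 members (42.9%), against 38.5% of all tested probes. Deleted was the higher line for 56 of them (29.3%), against 17.9%. The share with an unadjusted limma p under 0.05 was 24.7% of the 174 probes that dropped as far in both lines but differed between the bodies. It was 31.7% of the 126 that rose as far in both lines to a like level. Among probes that dropped in the control line it was 18.1% of the 836 that ended higher in deleted bodies and 36.7% of the 245 whose deleted decline fell short. Nothing in the share is shown to be particular to the members. The median difference between the stem cell lines was -0.01 log2 units over members and also over all probes tested. Members differed by at least 0.5 more often upward, 42 higher and 11 lower in deleted stem cells, against 4.15% and 2.01% of all tested probes. Leaving out control stem cell replicate 2 gave 11 calls among members (5.76%), against 0.117% of all tested probes, and leaving out deleted replicate 2 gave 14 (7.33%), against 2.16%. The fit then assumes that the lone array varies like the other groups.

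The 42 members that were higher in deleted stem cells by at least 0.5 had median levels of 416 and 638 units on the control stem cell arrays and 865 and 892 units on the deleted ones. Control replicate 1 was the lowest of the 4 stem cell arrays for 41 of the 42. For 36 the stem cell arrays of the lines did not overlap, with deleted higher, as for 17.9% of all tested probes. The cut at 0.5 favours both counts, so nothing is read from them. In bodies these members had medians of 133 to 161 units, and 19 of 42 were detected on all 7 body arrays. Their median decline was -1.62 log2 units in the control line and -2.45 in the deleted line. The 11 members lower in deleted stem cells had medians of 1491 and 1093 units in control and 731 and 885 units in deleted stem cells. The other 138 had medians of 549 to 682 units on all 4 arrays. These classes were cut on the measured values and are not tested.

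**Figure D5:**
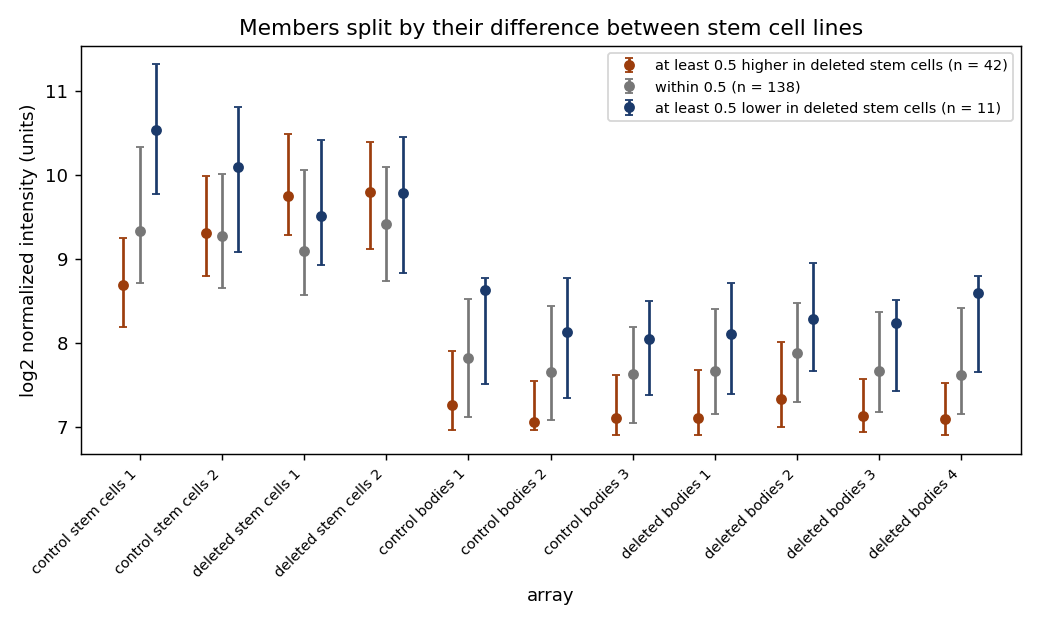
Median log2 normalized intensity on each of the 11 arrays for members at least 0.5 higher (n = 42), at least 0.5 lower (n = 11) or within 0.5 (n = 138) in deleted against control stem cells; bars are quartiles. Among the stem cell arrays the first class is lowest on control replicate 1, at 416 units, and on the body arrays its medians are 133 to 161 units.

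ILMN_2789948 had the largest stem cell difference. It read 281 and 853 units in control stem cells and 1736 and 1112 units in deleted ones, a difference of 1.51 ± 0.44 log2 units (SE, unadjusted p = 0.0070 and adjusted p = 0.51 with limma). In bodies it read 271, 179 and 178 units in the control line and 209, 282, 221 and 191 units in the deleted line. Its control decline of -1.25 rested on control stem cell replicate 2 and was -0.45 without it. That decline did not pass with limma under median scaling (adjusted p = 0.059), without a detection filter (0.070) or with the replicate block (0.10). With the 2 groups fitted alone (0.087) or without control body replicate 2 or 3 (0.085 and 0.082) it did not pass either. ILMN_2718662 read 480 and 1226 units, 1725 and 1531 units, 243, 139 and 159 units, and 179, 164, 140 and 162 units in the order control and deleted stem cells, control and deleted bodies. Both probes, like ILMN_2757617 above, had control stem cell replicate 1 lowest and deleted replicate 1 highest of the 4 stem cell arrays.

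The opposite order was seen in ILMN_1253224, at 1483 and 755 units in control and 570 and 563 units in deleted stem cells, and in ILMN_2951691, at 4104 and 2074 units against 2194 and 1516 units. Bodies of ILMN_1253224 read 245, 471 and 337 units and 278, 237, 303 and 293 units. Those of ILMN_2951691 read 585, 407 and 332 units and 475, 518, 398 and 571 units. The deleted decline of ILMN_1253224 did not pass with limma under median scaling (-0.93, adjusted p = 0.087) or without a detection filter (0.051). It also did not pass with the replicate number as a block (0.089) or without deleted body replicate 1 (0.052) or 2 (0.0501). ILMN_1229185 read 431 and 389 units in control stem cells but 201 and 369 units in deleted ones, a difference of -0.59 with deleted replicate 1 the lowest, and it was detected on 0 of 7 body arrays. Here control stem cell replicate 1 was the highest array in all 3 probes.

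The lowest p-values in the stem cell contrast belonged to 3 members whose stem cell arrays did not overlap between the lines. ILMN_2739760 read 241 and 254 units in control stem cells and 386 and 356 units in deleted ones, a difference of 0.58 ± 0.08 log2 units (SE, unadjusted p = 4.5e-05 and adjusted p = 0.51 with limma). It was detected on 0 of 7 body arrays, which read 109 to 120 units. ILMN_2980661 read 262 and 341 units against 469 and 493 units, and ILMN_2486906 read 435 and 688 units against 1129 and 986 units. The bodies of ILMN_2486906 read 133, 125 and 125 units and 120, 116, 123 and 113 units. The control stem cell arrays of ILMN_2486906 were themselves well apart. All 3 passed the interaction, but ILMN_2486906 did not with the replicate number as a block (limma adjusted p = 0.058) or without deleted stem cell replicate 1 (0.065).

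Stem cell replicates were less alike for members than for probes in general. The median SD between arrays of a group was 0.27 log2 units in both stem cell groups, against 0.10 and 0.12 over all probes tested. In bodies it was 0.13 for control and 0.15 for deleted, against 0.13 and 0.11. The 2 control stem cell arrays differed by at least 0.5 for 77 members (40.3%), against 6.46% of all tested probes and 9.45% of those detected on all stem cell arrays. The 2 deleted ones did so for 65 (34.0%), against 12.2% and 17.3%. Between control stem cell arrays the share was 21.2% in the 836 probes that dropped in the control line but stayed at least 0.3 higher in deleted bodies, 46.8% in the 62 that ended at least 0.3 lower and 13.5% in the 126 that rose equally. Between deleted stem cell arrays it was 30.6%, 29.0% and 54.8% in the same sets. These shares were not tested against each other.

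Within a group the members leaned to particular arrays. In deleted bodies 106 of 191 were highest on replicate 2 and 15 lowest, where 30.9% of all tested probes were highest on it. In control bodies 108 were highest on replicate 1, where 39.3% of all tested probes were. The member medians of these arrays, 215 and 204 units, were the highest of their groups. Without deleted body replicate 2 the rule gave 220 probes, 180 of them among the 191. The part of these arrays in the result was not tested beyond that.

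The rule was then applied to a single array per group, and the same measures were read on the arrays it had not used. Chosen on the 4 arrays numbered 1, 154 probes met the limits, 93 of them members. On the other 7 arrays 130 (84.4%) were at least 2-fold lower in bodies in the control line and 122 (79.2%) in the deleted line, against 5.82% and 3.62% of all tested probes. Of the same probes, 113 (73.4%) were so in both lines, against 2.11% of all tested probes. The body difference was under 0.3 for 85 of 154 (55.2%), against 68.2% of all tested probes. Chosen on the arrays numbered 2, 216 probes met the limits, 106 of them members. On the arrays not used, 149 (69.0%) were at least 2-fold lower in the control line and 134 (62.0%) in the deleted line, against 7.07% and 3.05%. There 96 (44.4%) were at least 2-fold lower in both lines, against 1.32%, and 145 (67.1%) had a body difference under 0.3, against 64.5%. On the arrays not used, the decline was thus more frequent among the chosen probes than among all tested probes. The latter were not limited to probes detected on all stem cell arrays. Arrays of a group may be repeats of 1 culture, so this shows agreement between arrays only. The share with a small body difference was below that of all tested probes for the first choice and slightly above it for the second.

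The limit on the bodies can also be read against probes chosen without it. Of 311 probes that dropped at least 2-fold in both lines on the arrays numbered 1, 43.1% had a held-out body difference under 0.3, against 55.2% with the limit. For the arrays numbered 2 these shares were 51.0% of 441 and 67.1%. All 3 limits were met again on the held-out arrays by 63 of 154 and 69 of 216 probes, against 1.09% and 0.692% of all tested probes. Each held-out stem cell group is 1 array, so these shares carry no error, and they were not tested.

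Among the 1334 probes detected on all stem cell arrays that dropped at least 2-fold in the control line, the 191 members were a minority. Another 836 were at least 0.3 higher in deleted than in control bodies and 62 at least 0.3 lower. The remaining 245 ended within 0.3 of control bodies but dropped less than 2-fold in the deleted line. Those 245 had a median stem cell difference of -0.37 and were lower in deleted stem cells for all but 3 probes. The limits that define this set push that difference downward, so nothing is read from it. The members were dimmer in control stem cells than the 836, with a median group mean of 604 against 905 units on the log2 scale, and in control bodies, with 185 against 285. Of the members, 66.0% were detected on all body arrays against 85.9% of the 836.

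The limits of the rule cut through a continuous range. ILMN_2466809 was the member with the smallest control decline, at -1.01, and ILMN_1256257, at -0.998, was the nearest probe left out. In the deleted line ILMN_2687661 was inside at -1.001 and ILMN_2983516 outside at -0.99. Between bodies ILMN_2597827 was inside at 0.2999 and ILMN_1213975 outside at 0.3005. ILMN_2597827 read 181, 167 and 180 units in control bodies and 175, 313, 187 and 214 units in deleted bodies, with deleted replicate 2 well above the rest. Short of a single limit were 66 probes for the control decline, 245 for the deleted decline and 174 for the body difference.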

How the data were processed

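RNA of 11 samples was hybridized to Illumina MouseWG-6 bead arrays, 1 array per sample. Per the labels, the authors read the arrays out in GenomeStudio 2011.1 (Gene Expression module 1.9.0). The deposited intensity values are not normalized between arrays, and background subtraction is not stated in any source used. The deposited detection p-value, 1 per probe and array, marks signal above background. The submitters' processing notes name limma.

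Intensities were quantile normalized over 11 arrays and taken to log2. A model of 4 group means was fitted with limma 3.58.1 in R 4.3.3 to the 23268 probes detected (p-value under 0.05) on 2 or more arrays. The other 22013 were left out; all 191 members passed this filter. Benjamini-Hochberg adjustment ran over the 23268 probes in each of 5 contrasts, at 0.05. Background compresses fold changes of dim probes. The fit and the rule were tested on simulated data. No 2 arrays had identical values.

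The members, the naming rule and the tests were chosen with earlier results of these data known. Named are the 10 members with the largest mean decline, the 5 brightest in bodies, the 4 with the lowest SE of the body difference among those detected on all 7 body arrays, the 6 with the largest stem cell differences, the 3 with the lowest stem cell p, those at the limits, the 2 with the most uneven bodies, and those said to be picked later. The replicate numbers did not pair the arrays. Alternatives were median scaling, neqc with an offset of 16, other filters, limits and moderation, a replicate block, fits of 2 groups, and each array left out in turn.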

Additional observations from a re-analysis of the deposited data

Results flagged for a closer look

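In the 4 deleted body arrays, 39 measures were examined for a lone distant array, and 5 had one. By chance about 1 in 20 would. The gap over the range was 0.898 for ILMN_2419138, from replicate 1 at 2646 units, and 0.896 for ILMN_2909150, from replicate 3 at 1665 units. It was 0.871 for ILMN_2659426, from replicate 1 at 133 units, and 0.836 for ILMN_2742912, from replicate 2 at 132 units, both near background. For the median level of the 191 members it was 0.873, from replicate 2 at 215 units.

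Over all tested probes, 11.6% passed the interaction with limma. Some probes were named for a low stem cell p or for differing bodies, which enter that contrast, so nothing is read from the next count. The difference between the lines differed between stages, by the interaction with limma, for 5 of the 38 probes named. It was -0.66 for ILMN_2739760, -0.89 for ILMN_2980661, -1.06 for ILMN_2486906 and -1.05 for ILMN_2756486, each with higher deleted than control stem cells; ILMN_2486906 lost the call with the replicate number as a block (adjusted p = 0.058) and without deleted stem cell replicate 1 (0.065). It was 0.52 for ILMN_2916202, the other way round, and this call was lost with trended robust moderation (adjusted p = 0.067), with the block (0.054) and without control (0.086) or deleted (0.076) stem cell replicate 1.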

How the results depend on the processing

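Rebuilt under other settings, the rule gave 426 probes after neqc, 328 with a decline of at least 0.8 and 121 with one of at least 1.2, of which 119, 191 and 121 were members. Median scaling gave 145, 144 of them members, and leaving out an array gave 155 to 240. Without a body array, members called lower in bodies numbered 188 to 190 in the control line, against 17.1% to 19.4% of all tested probes. In the deleted line they numbered 188 to 191, against 9.37% to 12.4%. Each line's count was lower still without one of its own stem cell arrays, a fit with 1 array in that group. The rule used both contrasts, so nothing is read from these counts. Calls between bodies, 1 as reported, are given with the share of all tested probes called, 22.5% as reported, in brackets. They were 3 with median scaling (18.7%), 13 with neqc (23.4%) and 2 without a detection filter (10.3%). They were 0 with trended robust moderation (23.1%), 8 with the bodies fitted alone (24.6%) and 0 to 2 without a body array (17.7% to 21%). Without a stem cell array, which leaves 1 array in its group, they were above that last range. Calls between stem cells ranged from 0 to 14 and interaction calls from 4 to 33 without an array. Intervals of the body difference within 1 log2 unit numbered 178 to 188 without a body array, 131 with neqc and 171 of the members in the fit with the bodies alone. That fit held fewer than 191 members, because it left out those detected on fewer than 2 body arrays. The cause of these changes was not tested. With the replicate number as a block, interaction calls fell to 3 (1.57%, against 7.97% of all tested probes) and the other counts stayed within 1.5 times. Of 13 same-numbered pairs of arrays 4 had deviations correlated above 0.1 (range -0.25 to 0.19), so the numbers are not taken as pairs, and deleted body replicate 4 adds nothing to that fit. No value named here changed sign among those called.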
